A study of Mus musculus with 20 samples.

Results

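The comparison described here is the change of the mutant-to-control ratio between embryonic day 12.5 (E12.5) and embryonic day 13.5 (E13.5), gene by gene, in mouse embryos that lack Ptdsr. It rests on 16 of the 20 arrays of the series, the 12 of E12.5 and the 4 of E13.5. The members were chosen by rule: every gene symbol with at least 1 probe that held 8 or more values at E12.5 and 3 or more at E13.5, which gave 7587 genes from 9752 of 20355 probes. For each gene the difference is the fitted log2 ratio at E13.5 minus that at E12.5, so a positive value means a higher ratio at the later age.

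On every array, cDNA made from total RNA of Ptdsr-/- embryos (mutant) was hybridised together with cDNA of a pool of 6 Ptdsr+/+ control animals, and the samples of both channels are labelled with the same age. The mutant carried the dye Cy5 on 6 arrays and Cy3 on 6 at E12.5, and Cy5 on 2 and Cy3 on 2 at E13.5. The design text names biological replicates for E12.5 alone. The 4 arrays of E13.5 are technical replicates, so their spread does not describe embryos, and p-values below measure the spread between arrays. Which arrays of E12.5 share an embryo is not given, nor is the part of the gene that the mutant allele lacks, nor the strain. The labels name embryos while the extraction text speaks of organs, so the tissue taken is not settled. Each age has its own control RNA, so that a change of the mutant and a change of the control pool cannot be told apart. In whole tissue, fewer cells of a type and less RNA per cell cannot be told apart either.

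Ptdsr is the older name of Jmjd6. The gene was cloned as a candidate receptor by which phagocytes recognise phosphatidylserine on apoptotic cells, and its protein was later placed in the nucleus, as an iron- and oxoglutarate-dependent hydroxylase of lysine residues, with splicing factors among its substrates. Embryos at these ages enlarge their liver, which makes plasma proteins such as albumin and alpha-fetoprotein and houses the formation of red cells. Ribosomal proteins, the subunits of the respiratory chain, the proteasome and chaperones are the abundant housekeeping machinery of growing cells, and transcripts of ribosomal proteins are among the most plentiful in an embryo.

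The sign of the deposited ratio is not settled. Values over 12 from 0, which repeat as for a channel set to a floor, had a plus sign on the 8 arrays whose mutant was Cy5 (8 of 8), and a minus sign on the 8 whose mutant was Cy3 (8 of 8). The Spearman correlation across genes between arrays of unlike dye orientation was below 0 in 0 of 4 pairs of E13.5 (median 0.0758) and in 21 of 36 pairs of E12.5 (median -0.0151). Pairs of like orientation had medians of 0.147 at E13.5 (0 of 2 below 0) and 0.0346 at E12.5 (12 of 30 below 0). At E12.5 arrays hardly correlated in either case, so those pairs say little about the sign. Genes are not independent replicates, and these correlations are a description. "Higher" and "lower" therefore refer to the deposited sign, and values after turning the sign for every array with a Cy3-labelled mutant stand beside the main groups. The arrays held 12722 to 19576 values. The share of ratios of small whole numbers, as dim spots give, was 9.33% to 51.5% per array. Arrays 9 and 10 of E12.5 stand apart with 42.6% and 51.5%, against at most 20.8% on the other 10 arrays of that age and 25.6% to 34.0% at E13.5. Where leaving them out moves a median or a named difference by over 1.5 times or across 0, both values are given.

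No gene passed the threshold of adjusted p under 0.05 by limma. Of the 7587 genes, 0 passed (percent called 0), the smallest adjusted p was 0.989, and 325 genes (4.28%) had an unadjusted p under 0.05, 185 of them higher (2.44%) and 140 lower (1.85%) at E13.5. On the log2 scale, standard errors had a median of 0.60. The median difference of all genes was 0.07, with 4163 genes (54.9%) above 0 and 3424 (45.1%) below. That split depends on how arrays are centred: with each array centred on 543 probes bright on all 16 arrays, in place of all its probes, the median of all genes moved to -0.37 and 32 genes were higher and 427 lower at an unadjusted p under 0.05. Without centring the split was 171 higher and 180 lower, with arrays scaled to 1 spread 392 and 194, and with the sign turned 84 and 104, so that the larger side changes with the sign. Differences of groups are therefore read beside the median of all genes. In 51 genes (0.672%) all arrays of E13.5 lay above all arrays of E12.5, and in 6 (0.0791%) all lay below.

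Jmjd6, the targeted gene, had log2 ratios of 0.45, 0.91, -0.81 and 0.36 on arrays 1 to 4 of E13.5. These are averages of 2 probes, and array 4 had 1 probe only. The probes lay on opposite sides of 0 on array 1 (0.93 and -0.04) and array 2 (-0.335 and 2.15). At E12.5 its ratios ran from -3.88 to 1.69 with a median of -0.58, and 10 of the 12 lay below 0. Each of these extremes came from 1 probe. Ratios of small whole numbers made up 34.3% of its values, against a median of 16.7% over all genes. The ages overlapped widely, with array 3 of E13.5 within the bulk of E12.5. The mean was -0.91 ± 1.46 (SD, n = 12) at E12.5 and 0.23 ± 0.73 (SD, n = 4) at E13.5. Its difference of 1.14 ± 0.71 (SE) had an adjusted p of 0.989 by limma and a two-sided exact permutation p of 0.166 over 1820 arrangements of the arrays, the smallest possible being 5.49e-04. The permutation treats arrays as exchangeable and leaves out dye orientation, although the 4 arrays of E13.5 are technical replicates, so its p does not describe embryos. Turning the sign on the arrays with the mutant in Cy3 left a difference of 0.03 for Jmjd6. Its probes, which need not lie in the part the allele lacks, averaged -0.71 ± 1.74 (SD, n = 10) and -1.20 ± 1.58 (SD, n = 10) at E12.5 and 0.12 ± 0.65 (SD, n = 4) and 0.32 ± 1.68 (SD, n = 3) at E13.5. Across 18 measured genes of the JmjC and related oxoglutarate-dependent oxygenases, 10 were higher and 8 lower, with a median difference of 0.08. That median was -0.39 centred on bright probes, where all genes were at -0.37. It was -0.06 without centring and 0.02 without arrays 9 and 10 of E12.5.

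Genes for cytosolic ribosomal proteins had the highest median difference of the lists with at least 5 measured genes under the deposited sign, and not with the sign turned, where skeletal muscle genes were highest at 0.25 and ribosomal ones at 0.02. Of 49 measured genes, 42 had a higher ratio at E13.5 and 7 a lower one, and the median difference was 0.84, or 1.79-fold, against 0.07 over all genes. An unadjusted p under 0.05 was reached by 18 genes that were higher, against a background of 2.44%, and by 1 that was lower. In 10 of the 49 the arrays of the ages did not overlap, all higher, against 0.672% of all genes. Of the 45 with a value on all arrays of E13.5, 36 were above 0 on 4 of 4 and 0 were below on 4 of 4, against 13.2% and 7.59% of all genes. The large subunit (28 genes, 25 higher, median 0.83) and the small subunit (21 genes, 17 higher, median 0.84) gave nearly the same value.

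The group sat together on each array of E13.5. Its median minus that of all genes was 0.61, 0.60, 0.70 and 0.57 on arrays 1 to 4. At E12.5 it ran from -1.51 to 0.48 with a median of -0.06, and the lowest values were those of array 9 (-1.51), array 10 (-0.77) and array 13 (-0.36). No array of E12.5 reached the lowest array of E13.5. At E11.5, which the comparison does not use, the 4 arrays ran from -0.36 to 0.05. The difference was 0.78 within arrays with the mutant in Cy5 and 0.85 within those with it in Cy3. Without arrays 9 and 10 the median difference was 0.60, 21 genes were higher at an unadjusted p under 0.05, against 3.37% of all genes in that fit, and 12 of the 49 genes (24.5%) did not overlap, against 0.909% of all genes.

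**Figure D1:**
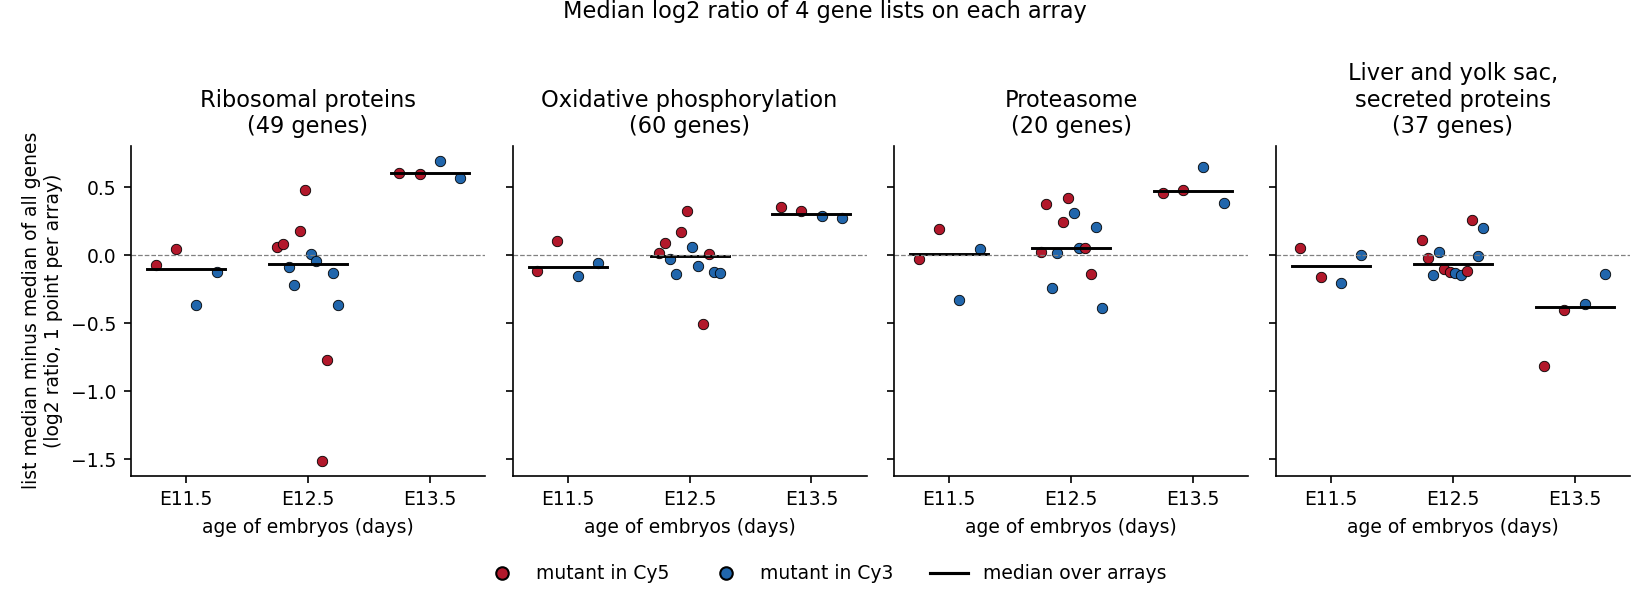
Median log2 ratio of 4 gene lists minus the median of all genes on the same array (vertical axis), with 1 point per array at each age (horizontal axis), coloured by the dye of the mutant, and a line at the median over arrays. Ribosomal proteins lie at 0.57 to 0.70 on the 4 arrays of E13.5, above all 12 arrays of E12.5, and secreted liver proteins lie below 0 on 4 of 4 arrays of E13.5, where 2 arrays of E12.5 lie no higher than the highest of them; with the sign turned on arrays with the mutant in Cy3, the proteasome median is -0.10.

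Rps15a, a protein of the small subunit, had the smallest p of the group. Its ratios were 0.76, 0.72, 1.45 and 0.95 on arrays 1 to 4 of E13.5, and at E12.5 they ran from -2.60 to 0.16 with a median of -0.04. All arrays of E13.5 lay above all of E12.5, and the lowest values of E12.5 were those of arrays 9 and 10. The difference was 1.41 ± 0.47 (SE), with an unadjusted p of 0.00825 and an adjusted p of 0.989 by limma.

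Rpl7, of the large subunit, was at 1.17, 0.93, 1.08 and 0.88 at E13.5 and between -1.38 and 0.77 (median 0.08) at E12.5. Rpl37 was at 0.76, 0.62, 0.74 and 0.84 against -1.84 to 0.30 (median -0.11), and Rpl34 at 0.92, 0.91, 0.97 and 0.74 against -2.09 to 0.38 (median 0.01). In none of these large-subunit genes did the ages overlap, and the arrays of E13.5 lay closer together than those of E12.5. Their differences were 1.10 ± 0.40, 1.02 ± 0.39 and 1.14 ± 0.43 (SE).

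Rps13 was at 0.99, 0.57, 0.96 and 0.60 at E13.5 against -2.60 to 0.18 (median -0.06) at E12.5, with a difference of 1.21. Rpl24 was at 0.82, 0.71, 1.02 and 0.42 against -1.30 to 0.29, with a difference of 0.92. Neither overlapped between ages. Rps4x, at 1.12, 1.08, 1.32 and 0.65 against -1.61 to 0.79 (difference 1.24), and Rps27, at 0.32, 0.61, 0.92 and 0.61 against -1.65 to 0.91 (difference 1.11), each overlapped in 1 array of E12.5.

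Not all ribosomal genes lay with the group. Rps18, whose probe gave only 8 values at E12.5, ran from -1.26 to 3.56 (median 2.37) there and was at 0.64, -0.53 and -0.41 on arrays 1, 3 and 4 of E13.5, a difference of -2.07 ± 0.90 (SE) with an unadjusted p of 0.0396. The other genes with a lower ratio, named here after their values were seen, were Rpl39 (-1.20), Rplp0 (-0.75), Rps16 (-0.49), Rps12 (-0.48), Rps26 (-0.07) and Rpl6 (-0.06), and none of these 6 reached an unadjusted p under 0.05. Dim spots were common in several of them: 36.4% of the values of Rps18, 58.3% of those of Rpl39 and 53.8% of those of Rplp0 were ratios of small whole numbers, against a median of 6.67% over the 49 genes. Many ribosomal protein genes have processed pseudogenes, and whether the probes tell the copies apart is not known here.

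**Figure D2:**
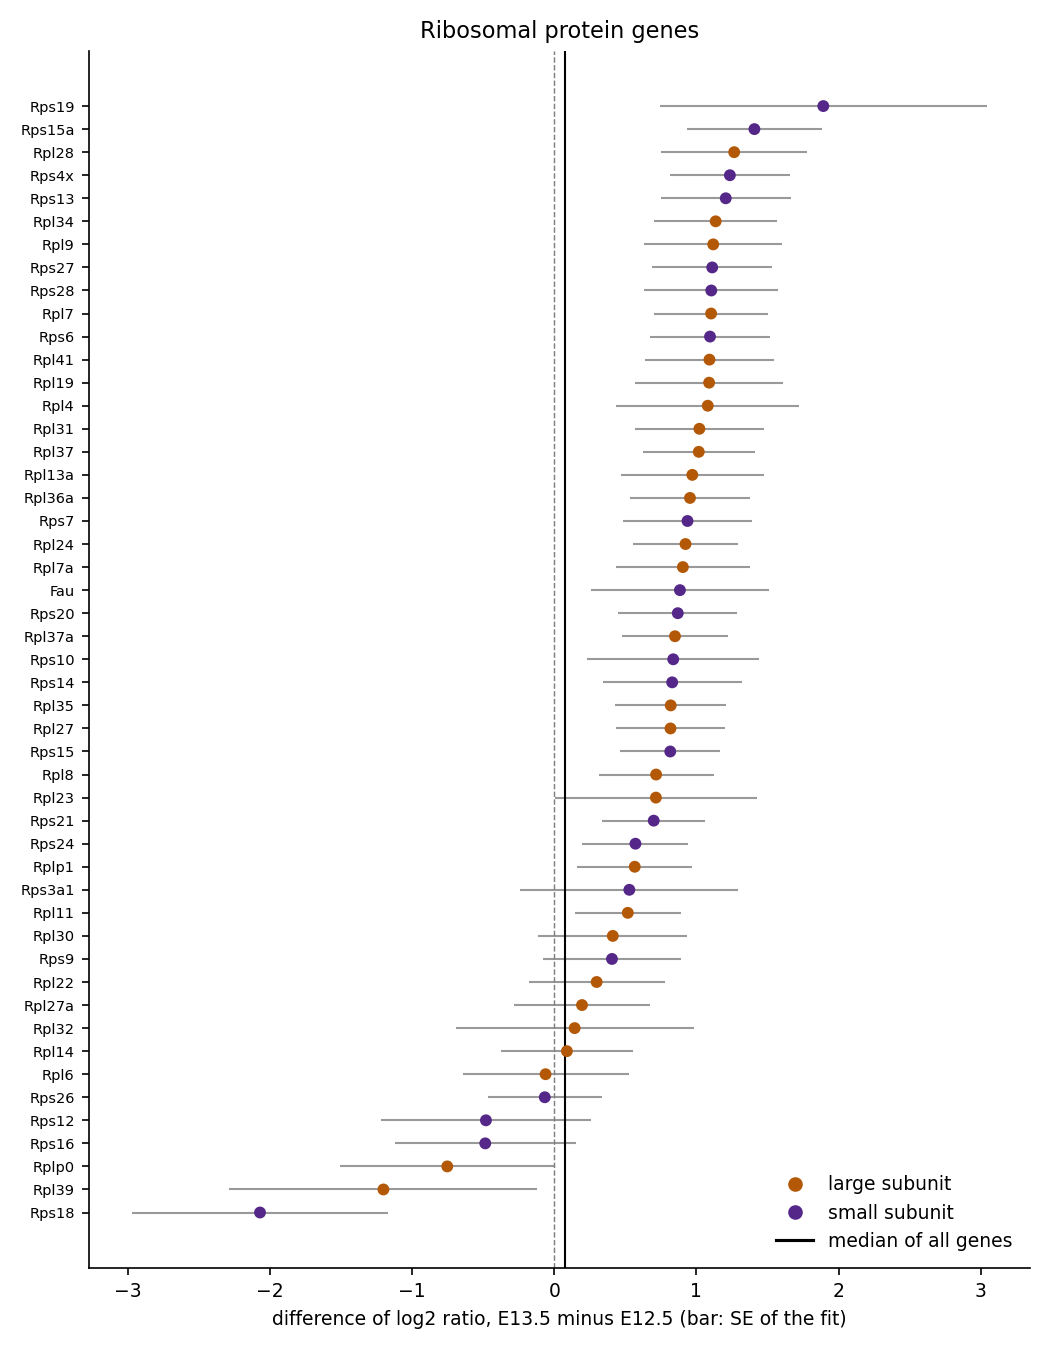
Difference of the fitted log2 ratio, E13.5 minus E12.5 (horizontal axis), for each of the 49 measured ribosomal protein genes (rows), with the standard error of the fit as bars, large subunit in orange and small subunit in purple, and the median of all genes as a line. Of the 49 points 42 lie above 0 and Rps18 lies lowest at -2.07; centred on bright probes 36 lie above 0, and with the sign turned on arrays with the mutant in Cy3, 29.

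The ribosomal genes are bright, and brightness moved with the comparison. Among genes ranked by their share of small whole-number ratios, the brightest class (1843 genes, up to 7.64% of values) had a median difference of 0.23, and the following classes 0.05, -0.0015 and 0.0071. Of the 49 ribosomal genes 30 lay in the brightest class. Centred within these classes, the ribosomal median was 0.70. Centred on bright probes it was 0.37, which is 0.74 above the median of all genes under that centring, with 36 genes higher and 13 lower and 5 higher at an unadjusted p under 0.05 (0.422% of all genes). Turning the sign left a median of 0.02 over the 49 genes, of which 29 were higher, 20 lower and 0 higher at an unadjusted p under 0.05 (1.11% of all genes), and a median of -0.00073 over the 28 genes of the large subunit. With the 4 arrays of E13.5 taken as 1 sample, the median stayed at 0.84 and 0 of 49 genes (14 of all, 0.185%) reached an unadjusted p under 0.05. The count of 18 was 8 without array 1 of E13.5 (1.38% of all genes in that fit), 9 without array 2 (1.74%), 8 without array 3 (1.62%) and 11 without array 4 (1.94%).

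Oxidative phosphorylation genes, which encode the mitochondrial electron carriers and ATP synthase, were also mostly higher at E13.5. Of 60 measured genes 45 were higher and 15 lower, with a median difference of 0.47 (1.38-fold). At an unadjusted p under 0.05 there were 3 higher (background 2.44%) and 2 lower (1.85%), and 1 gene did not overlap between ages (0.672% of all genes). The group's median minus that of all genes was 0.35, 0.32, 0.29 and 0.28 on arrays 1 to 4 of E13.5 and -0.50 to 0.33 (median -0.01) at E12.5. Array 6 of E12.5, at 0.33, lay among the arrays of E13.5, and the lowest was array 9. Without arrays 9 and 10 the median difference was 0.43, with 48 higher and 12 lower.

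By complex, ATP synthase (11 genes, 10 higher, median 0.64) and complexes II and III (10 genes, 9 higher, median 0.62) had the larger medians under the deposited sign. Complex I (27 genes, 18 higher) was at 0.29 and complex IV (12 genes, 8 higher) at 0.32. The medians of complexes I and IV, centred on bright probes, turned to -0.09 and -0.11 while all genes moved to -0.37, and the whole group was at 0.04, which is 0.41 above all genes. That order was not kept with the sign turned, where complex I was at 0.11, complexes II and III at 0.12, complex IV at -0.13, ATP synthase at 0.04 and the whole group at 0.07.

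Cox6c, a small subunit of cytochrome c oxidase, was at 0.51, 0.60, 0.86 and 0.55 at E13.5 and between -0.57 and 0.17 (median -0.26) on 10 arrays of E12.5. The ages did not overlap, and the difference was 0.86 ± 0.32 (SE) with an unadjusted p of 0.0156. Atp5l, subunit g of ATP synthase, was at 0.77, 0.46, 0.30 and 0.49 against -1.01 to 0.49 (median -0.22), an overlap of 1 array, with a difference of 0.76 ± 0.33. Uqcrc2, a core protein of complex III, was at 1.14, 0.50, 0.82 and 0.58 against -1.88 to 0.60, with a difference of 0.98 ± 0.48 (0.64 without arrays 9 and 10 of E12.5) and an unadjusted p of 0.0553. Of the 15 genes that were lower, those with an unadjusted p under 0.05 were Cox8b, an isoform of muscle and heart, at -1.19, -0.71, -1.84 and -0.11 against -1.22 to 1.75 (difference -1.43), and Ndufc2 of complex I, at -0.91, -1.34, 0.15 and -0.04 against -1.41 to 2.62 (difference -1.28). By dye of the mutant, the difference of Ndufc2 was -2.53 for Cy5 and -0.02 for Cy3, and its 2 probes gave -0.53 and -1.57. Ndufs7 of complex I was at 0.37, 1.94, -0.13 and 0.47, and its difference of 0.99 was 0.54 without array 2 of E13.5.

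Proteasome and chaperone genes lay on the same side. Of 20 measured proteasome genes 16 were higher (median 0.46), and of 23 chaperones 20 (median 0.50), with 0 of 20 and 1 of 23 genes at an unadjusted p under 0.05, where all genes had 4.28%. The proteasome median minus that of all genes was 0.46, 0.48, 0.65 and 0.38 on arrays 1 to 4 of E13.5, against -0.38 to 0.42 at E12.5, with array 6 the highest of E12.5 and the sole one to reach the lowest of E13.5. Psmb5, a catalytic subunit, was at 0.98, 0.61, 0.81 and 0.58 against -1.58 to 0.75, with a difference of 0.67 ± 0.41. P4hb, the protein disulphide isomerase of the endoplasmic reticulum, was at 0.82, 0.68, 0.42 and 0.23 against -1.76 to 0.25, with a difference of 0.88 ± 0.40. Bright-probe centring gave medians of 0.01 for the proteasome and 0.03 for chaperones, and with the sign turned -0.10 and 0.15.

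Most genes of plasma proteins, the secreted products of fetal liver and yolk sac, had a lower ratio at E13.5, and Alb and Afp had the smallest p. Of 37 measured genes 24 were lower and 13 higher, with a median difference of -0.21 (1.16-fold) against 0.07 over all genes. That direction was not particular to this list. Medians were lower still for endothelium (-0.43) and histones (-0.29), or -0.26 and -0.08 without arrays 9 and 10 of E12.5. Of 18 macrophage genes 12 were lower. In the plasma protein list, the genes with an unadjusted p under 0.05 were all lower, 4 of 37 against a background of 1.85%: Alb, Afp, Rbp4 and Fgb. Only Afp did not overlap between ages (0.0791% of all genes). Of the 25 with a value on all arrays of E13.5, 8 were below 0 on 4 of 4 and 0 above on 4 of 4, against 7.59% and 13.2% of all genes. A ratio below 0 at E13.5 is not by itself a change between ages. Of the 8, Trf (difference 0.21) and Serpinf1 (0.10) were higher than at E12.5.

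The group's median minus that of all genes was -0.81, -0.40, -0.36 and -0.14 on arrays 1 to 4 of E13.5, and -0.15 to 0.26 (median -0.06) on the 12 arrays of E12.5. Array 1 of E13.5 was the lowest, array 4 lay among the lowest of E12.5, and the 4 arrays of E11.5 ran from -0.20 to 0.05. By dye, the difference was -0.46 on arrays whose mutant was Cy5 and -0.18 on the others. Carriers and apolipoproteins (16 genes, 12 lower) had a median of -0.20 and clotting factors and protease inhibitors (21 genes, 12 lower) one of -0.21. The 10 genes of hepatocyte enzymes and liver transcription factors, a list that also holds Igf2, had one of 0.05. That list was at -0.33 centred on bright probes, where all genes were at -0.37, and at -0.05 without centring. The group of 37, centred on bright probes, was at -0.68, which is 0.31 below all genes, and with the sign turned at -0.15. Without arrays 9 and 10 of E12.5 the medians were -0.20 for the 37 genes, -0.13 for carriers, -0.40 for clotting factors and inhibitors and 0.11 for liver enzymes.

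Alb, serum albumin, was at -1.72, -1.45, -1.22 and -1.48 on arrays 1 to 4 of E13.5. At E12.5 it ran from -1.27 to -0.02 with a median of -0.11 over 11 arrays, and array 8, at -1.27, was the sole one to reach the values of E13.5. Its difference was -1.18 ± 0.33 (SE), with an unadjusted p of 0.00249 and an adjusted p of 0.989 by limma. By dye of the mutant, it was -1.49 for Cy5 and -0.88 for Cy3. Afp, alpha-fetoprotein, was at -1.58, -1.89, -1.003 and -0.73 against -0.70 to 0.76 (median -0.01) on 11 arrays, with no overlap. Its difference was -1.33 ± 0.40 (SE, unadjusted p = 0.00418), and the arrays with the mutant in Cy5 were the lower ones at E13.5. The 3 probes for Afp gave differences of -1.33, -1.88 and -0.81.

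Rbp4, which carries retinol in plasma, was at -2.58, -1.07, -1.74 and -0.52 against -1.77 to 0.69 (median -0.09), with a difference of -1.31 ± 0.46. Fgb, the beta chain of fibrinogen, was measured on arrays 2, 3 and 4 of E13.5, at -2.27, -1.87 and -0.66, against -1.75 to 1.42 on 9 arrays, with a difference of -1.58 ± 0.60 that was -0.80 without array 2 of E13.5. Both overlapped between ages. Of the 7 tested defining markers of hepatocytes and yolk sac, 4 were lower (Alb, Afp, Fgb and Fga, -1.20) and 3 higher (Apoa1 at 0.46, Ttr at 0.29 and Trf at 0.21). The SE was 0.66 for Apoa1, 0.64 for Ttr, 0.64 for Trf and 1.04 for Fga, and none of these reached an unadjusted p under 0.05.

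**Figure D3:**
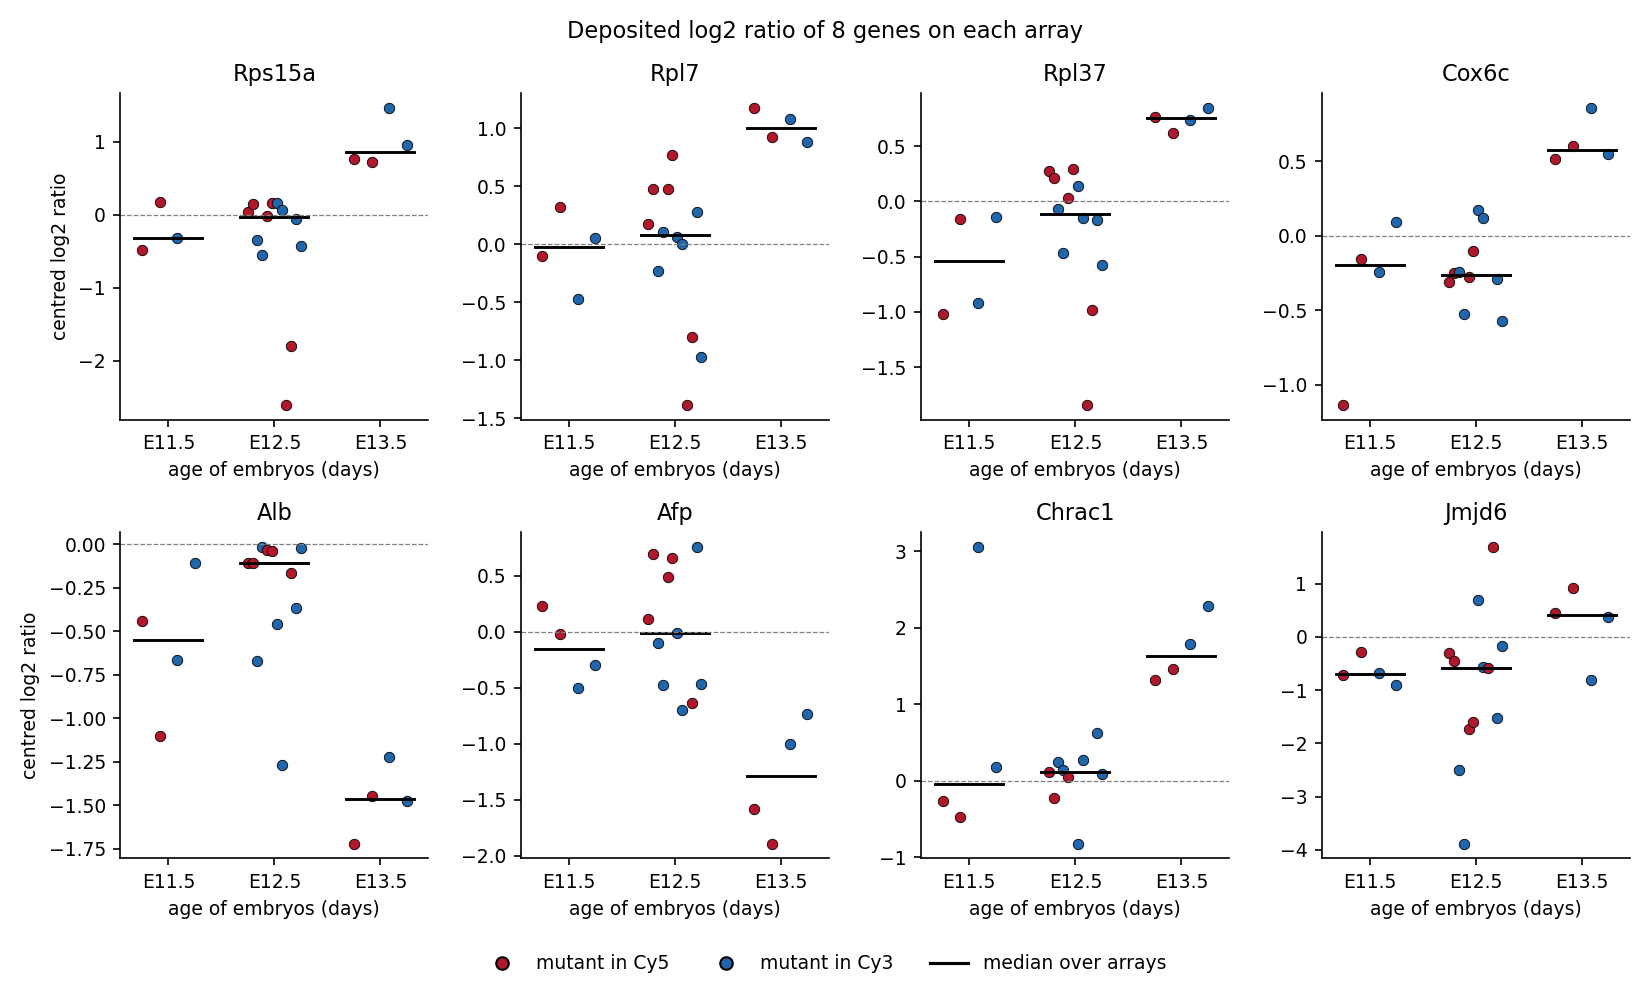
Centred log2 ratio (vertical axis) of 8 genes on each array, by age (horizontal axis), coloured by the dye of the mutant, with a line at the median over arrays. Rps15a, Rpl7, Rpl37, Cox6c and Chrac1 have all 4 arrays of E13.5 above all arrays of E12.5, Afp has all 4 below, Alb overlaps in 1 array and Jmjd6 overlaps widely; with the sign turned on the arrays with the mutant in Cy3, the differences of Rpl7, Cox6c and Chrac1 turn below 0.

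The promoters of ribosomal and secreted liver genes differ in sequence, which is a property of the genes and not of these arrays. They are shown for the groups described above, where 42 of 49 ribosomal genes were higher and 24 of 37 liver genes lower. Sequences are those of RefSeq on GRCm38.p6, the 200 bases before the first-listed start, and were found for 42 of the 49 ribosomal, 29 of the 37 liver and 6132 of all genes tested. Both strands were searched for CGGAAG, the core bound by ETS factors, for GTTAAT, a stretch of the site of the liver factor HNF1, and for TATAAA, the TATA box. CGGAAG was found in 22 ribosomal promoters (52.4%), in 2 of the liver genes (6.9%) and in 21.6% of all genes tested, and in 11 of 50 promoters of oxidative phosphorylation (22%). GTTAAT was found in 9 liver promoters (31%), in 2 ribosomal ones (4.76%) and in 2.85% of all. TATAAA was found in 4 liver promoters (13.8%), in 1 ribosomal one (2.38%) and in 5.33% of all. Over all 27025 promoters of the table the shares were 12.3% for CGGAAG, 5.09% for GTTAAT and 10.6% for TATAAA. A match of letters does not show that a factor binds.

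Rps15a (chr7:118116148-118116347, minus strand) and Rps13 (chr7:116334191-116334390, minus strand) stand for the small ribosomal subunit, and Alb (chr5:90460670-90460869, plus strand) and Afp (chr5:90490514-90490713, plus strand) for the liver group. Alb and Afp are neighbours that share an ancestor, with starts 29844 bases apart. Each is printed 5′ to 3′ along its gene's strand, in lower case, and capitals mark the motifs, also where they lie on the other strand.
Rps15a: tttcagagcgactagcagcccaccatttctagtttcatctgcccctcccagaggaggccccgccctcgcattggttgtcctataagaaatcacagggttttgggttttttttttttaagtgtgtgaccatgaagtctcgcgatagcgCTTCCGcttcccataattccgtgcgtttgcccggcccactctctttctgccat
Rps13: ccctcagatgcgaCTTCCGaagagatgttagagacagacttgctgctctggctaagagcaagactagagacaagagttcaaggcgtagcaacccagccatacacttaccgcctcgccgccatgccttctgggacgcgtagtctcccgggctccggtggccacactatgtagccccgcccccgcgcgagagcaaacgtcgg
Alb: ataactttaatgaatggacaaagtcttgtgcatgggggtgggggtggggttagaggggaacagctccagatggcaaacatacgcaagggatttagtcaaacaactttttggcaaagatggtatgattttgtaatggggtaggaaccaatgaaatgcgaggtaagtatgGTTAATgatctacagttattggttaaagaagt
Afp: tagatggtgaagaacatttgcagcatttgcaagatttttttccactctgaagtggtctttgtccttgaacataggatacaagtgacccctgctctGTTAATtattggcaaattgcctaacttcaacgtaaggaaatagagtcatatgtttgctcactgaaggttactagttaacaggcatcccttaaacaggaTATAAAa
The ribosomal promoters printed hold CTTCCG, the other strand of the ETS core, once each. Those of Alb and Afp each hold GTTAAT, and that of Afp also TATAAA; the matches do not overlap each other.

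Other steps of protein synthesis did not show the median of the ribosomal proteins. Of 48 mitochondrial ribosomal genes 28 were higher (median 0.23), of 31 translation factors 20 (median 0.11), and of 32 genes of ribosome biogenesis 16 were higher and 16 lower (median -0.05). Under bright-probe centring these medians were -0.26, -0.28 and -0.53, against -0.37 for all genes. With the sign turned they were -0.20, -0.21 and -0.10. Mrps23, of the small mitochondrial subunit, was at 2.44, 0.87, 0.85 and 1.39 against -1.85 to 1.10, with a difference of 1.42 ± 0.43. Mrpl33 was at 0.57, 0.52, 0.77 and 1.53 against -0.65 to 0.59 (difference 0.87). Mrpl13, at 3.03, -0.32, 0.71 and 0.14 (difference 1.07), was at 0.34 without array 1 of E13.5. Tpt1, the translationally controlled tumour protein, was at 1.16, 1.06, 0.82 and 0.81 against -1.50 to 1.02, with a difference of 1.06 ± 0.42. Pabpc1, the cytoplasmic poly(A)-binding protein, was at 7.12, 1.87, -0.02 and 0.80, and its difference of 2.43 rested on array 1, without which it was 0.94. Lower values were those of Eif4g3, an initiation scaffold (-1.14 ± 0.47), and Polr1c, a subunit of RNA polymerases I and III (-2.32 ± 0.9965). The 4 probes for Eif4g3 gave differences of -1.81, 0.22, -1.91 and -0.73. By dye of the mutant, its difference was -1.83 for Cy5 and -0.45 for Cy3.

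Splicing genes, among which Jmjd6 has substrates, had no common direction. Of 45 measured genes 28 were higher and 17 lower, with a median of 0.13. That median was -0.35 centred on bright probes, where all genes were at -0.37, and -0.02 without centring. With the sign turned it was -0.01, and without arrays 9 and 10 of E12.5 it was 0.02. Hnrnpc, an hnRNP protein of nascent transcripts, was at 1, 0.60, 0.87 and 0.34 against -1.17 to 0.36 (difference 0.84 ± 0.36). At an unadjusted p under 0.05, 1 of 45 was higher (background 2.44%) and 3 were lower (background 1.85%): the helicase Snrnp200 (-1.62 ± 0.65), the snRNP protein Prpf31 (-1.09 ± 0.47) and the GTPase Eftud2 (-1.94 ± 0.84). Each overlapped between ages, in at least 2 arrays of E12.5. Eftud2 and Snrnp200 turned to 0.997 and 0.19 with the sign turned.

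Genes of cell division were near the median of all genes or a little above it. Of 27 cell cycle genes 18 were higher (median 0.22) and of 27 DNA replication genes 19 (median 0.25). Centred on bright probes, both medians were below 0, at -0.26 and -0.18, where all genes were at -0.37. The cell cycle median was 0.06 without arrays 9 and 10 of E12.5. Cdk1, the mitotic kinase, was at 0.92, 0.57, 0.80 and 0.70 against -1.05 to 0.77, and Mcm4, of the replicative helicase, at 0.74, 0.42, 1.002 and 0.58 against -1.93 to 0.43. Each overlapped in 1 array of E12.5, and the differences were 0.74 ± 0.35 and 0.83 ± 0.42. Among 11 genes of the p53 response 9 were higher (median 0.54), with Xpc, a DNA repair sensor, at 1.08, 0.30, 1.02 and -0.54 against -1.64 to 0.21 (difference 0.99 ± 0.46). That list's median on arrays of E13.5 was 0.02, 0.34, -0.06 and -0.18 relative to all genes, so the difference came with E12.5 arrays below 0, 10 of 12. In 13 apoptosis genes 5 were higher and 8 lower (median -0.07, and -0.13 without arrays 9 and 10 of E12.5), and the smallest p was that of Casp1, at 1.12 ± 0.74, or 0.72 without array 10 of E12.5.

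Of 8 histone genes 3 were higher and 5 lower, with a median of -0.29, or -0.08 without arrays 9 and 10 of E12.5 and likewise with arrays scaled to 1 spread. Among them H3f3b, which encodes the replacement histone H3.3, was at 0.70, 0.53, 0.82 and 0.52 against -2.04 to 0.40 and did not overlap (difference 1.01 ± 0.45). H2az1 was at -2.02, 0.17 and -1 on 3 arrays against -0.70 to 3.43 on 8 (difference -2.66 ± 0.94, and -1.76 without array 2 of E13.5). In sterol synthesis (11 genes, 7 higher, median 0.30), Msmo1, a sterol methyl oxidase, was at 1.42, 1.25, 0.56 and 0.85 against -1.65 to 0.43 and did not overlap (difference 1.17 ± 0.39). Scap, a sterol-sensing escort of transcription factors, was at 1.22, 3.15, 0.85 and 0.29 (difference 1.56, and 0.99 without array 2 of E13.5). Bnip3l, a mitophagy receptor of the hypoxia list (12 genes, 5 higher, median -0.17), was at 0.52, 0.45, 0.64 and 0.43 against -2.32 to 0.21 and did not overlap (difference 0.97 ± 0.44). In central metabolism the citric acid cycle (12 genes, 8 higher, median 0.18) was led by Pdhb (0.75 ± 0.44) and glycolysis (13 genes, 8 higher, median 0.39) by the muscle enolase Eno3 (1.42 ± 0.68, and 0.87 without array 1 of E13.5). Centred on bright probes, the medians of the citric acid cycle and glycolysis were -0.24 and -0.09, against -0.37 for all genes. With the sign turned the median of the hypoxia list was 0.12. Without arrays 9 and 10 of E12.5 the citric acid cycle was at 0.05 and glycolysis at 0.23.

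Only some cell type lists had members past an unadjusted p of 0.05. The shares were 10.7% of neuronal, 6.67% of neural progenitor and 6.25% of matrix genes, against 4.28% of all genes. In the endothelial list and the cell type lists of the next paragraph the share was 0. Of 28 neuronal genes 18 were higher (median 0.17): Stmn2, a microtubule regulator of growing axons, was at 0.51, 0.21, 0.78 and 0.47 against -1.88 to 0.40 (difference 1.05 ± 0.41), whereas Map2, of dendrites, was at -2.28, -2.12, -0.02 and -0.22 (difference -1.34 ± 0.59) and the adhesion protein Cntn1 at -2.69, -2.61, 0.21 and -0.72 (difference -1.13 ± 0.52). For Map2 and Cntn1 the low arrays of E13.5 were those with the mutant in Cy5. In 15 neural progenitor genes (10 higher, median 0.40), Notch1 was at 1.03, 1.41 and 1.17 on 3 arrays against -2.50 to 2.57 (difference 2.06 ± 0.80). Of 32 genes of the extracellular matrix and mesenchyme 21 were higher (median 0.35), with Col3a1, a fibrillar collagen, at a difference of 1.88 ± 0.86 and the proteoglycan Dcn at 0.86 ± 0.41. Of 13 endothelial genes 8 were lower (median -0.43), with Flt4, the lymphatic VEGF receptor, at -1.36 ± 0.72, or -0.39 without array 1 of E13.5. Centred on bright probes, the medians of the neuronal and matrix lists were -0.26 and -0.13, against -0.37 for all genes. With the sign turned the median of neural progenitors was -0.17. The matrix list was at 0.22 and the endothelial list at -0.26 without arrays 9 and 10 of E12.5.

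Red cell genes were near 0 as a list (17 genes, 10 higher, median 0.01), and Ppox, a haem synthesis enzyme with the smallest p among them, was at 0.68 ± 0.68, or 0.26 without array 1 of E13.5. Of 7 defining markers of red cells 4 were on the array and tested. All 4 were higher, Hba-x at 1.06, Hba-a1 at 0.45, Alas2 at 0.22 and Slc4a1 at 0.10. Of all genes 54.9% were above 0, with a median of 0.07. Of 18 macrophage genes 12 were lower (median -0.11, and 0.06 without arrays 9 and 10 of E12.5), and the lysosomal protease Ctsd, with the smallest p, was at 1.06 ± 0.72, or 0.40 without array 1 of E13.5. Of 5 macrophage markers 2 were tested and both were lower, C1qb at -0.80 and Cd68 at -0.14, where 45.1% of all genes were below 0. The eye and lens list (11 genes, 5 higher, median -0.01) held Pax6, an eye and forebrain regulator, at -1.69 ± 0.86. Epithelial genes (19, 9 higher, median -0.04) were led by Lgals4 (-1.04 ± 0.63, or -0.53 without array 4 of E13.5), cartilage and bone (10 genes, 8 higher, median 0.22) by Comp (-1.40 ± 0.75, or -0.91 without arrays 9 and 10 of E12.5), heart (6 genes, 5 higher, median 0.26) by Myl2 (0.95 ± 0.61, or 0.57 without array 10 of E12.5), and skeletal muscle (25 genes, 14 higher, median 0.11) again by Eno3. Centred on bright probes, the medians were -0.40 for red cells, -0.28 for cartilage and bone, -0.17 for heart and -0.31 for skeletal muscle. All genes were at -0.37 under that centring. The eye and lens list turned to 0.07 and the epithelial list to 0.07 with arrays scaled to 1 spread. Without arrays 9 and 10 of E12.5 the medians were -0.0036 for red cells, 0.0085 for eye and lens and 0.12 for epithelia, each across 0 from the value with them. The growth factor Igf2, in the list of liver enzymes and factors, was at 0.77, 0.66, 0.09 and 0.21 against -2.31 to 0.27 (difference 1.01 ± 0.50, and 0.63 without arrays 9 and 10 of E12.5). Of the placental markers 1 was tested, Psg19, at -1.03. The part of cell types in the results above was not tested.

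**Figure D4:**
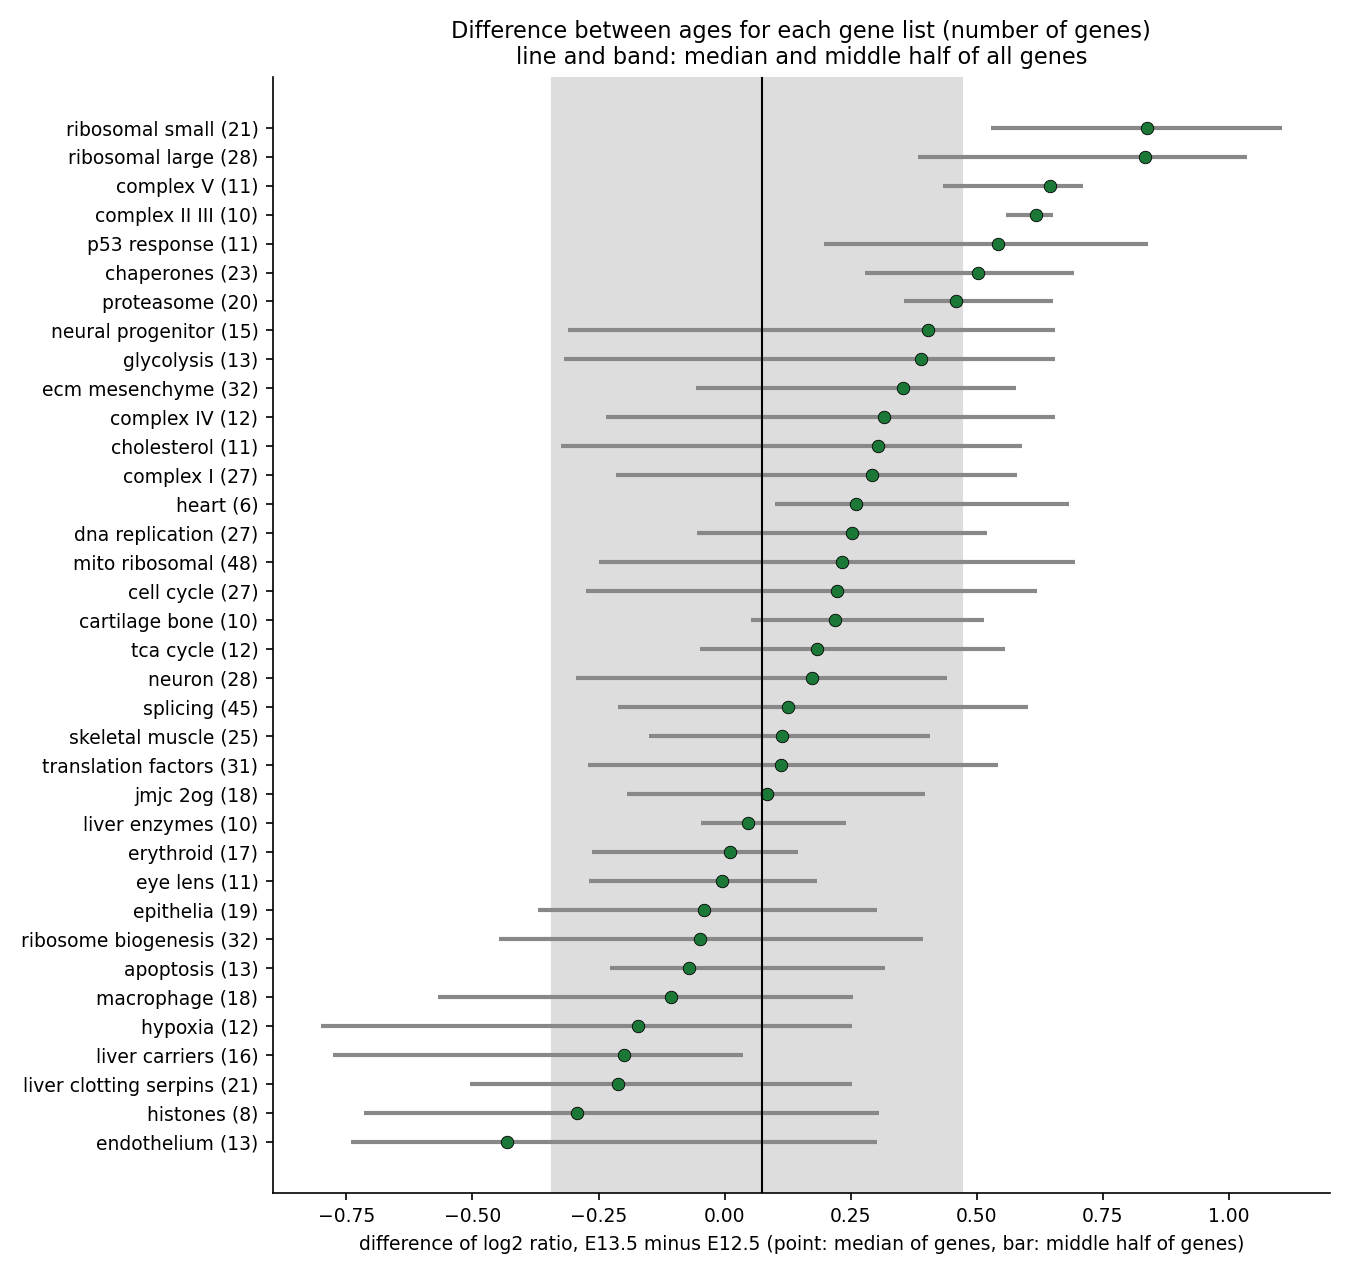
Median difference of log2 ratio, E13.5 minus E12.5 (points, horizontal axis), of the 36 gene lists with at least 5 measured genes (rows, number of genes in brackets), with the range from lower to upper quartile of genes as bars, and the median and quartiles of all genes as a line and band. Ribosomal proteins lie highest at 0.83 and 0.84 and endothelium lowest at -0.43; of the 36 medians 26 lie above 0, and 9 do so when arrays are centred on bright probes. With the sign turned on arrays with the mutant in Cy3, the ribosomal medians are -0.00073 and 0.08, no longer the highest, and 10 of the 36 change sign.

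Among single genes, the 10 with the smallest p in each direction were of varied function, and none passed the adjusted threshold. Chrac1, a histone-fold subunit of a chromatin remodelling complex, was first, at 1.32, 1.47, 1.79 and 2.28 on arrays 1 to 4 of E13.5 against -0.82 to 0.62 (median 0.12) on 9 arrays of E12.5. The ages did not overlap, and its difference was 1.71 ± 0.37 (SE), with an unadjusted p of 3.93e-04 and an adjusted p of 0.989 by limma. With the sign turned it was -0.45. The other genes with a higher ratio were Ttyh3 (3.76 ± 0.9972), a membrane protein of the tweety family, Alox12e (1.82), a lipoxygenase of skin, Adam12 (1.82), a metalloprotease, Sec24b (1.76), of the COPII coat, Mrps23, Ist1 (1.98), of the ESCRT machinery, 1700012A03Rik (2.28), Pdxp (1.68), pyridoxal phosphatase, and Sdc1 (1.20), the proteoglycan syndecan 1. Ist1 was 1.16 without array 1 of E13.5 and Pdxp 0.98 without array 4, and 1700012A03Rik ran from 1.55 to 3.45 on leaving out each array. Of these 10, Chrac1 and Ist1 did not overlap between ages, where 0.672% of all genes did so with a higher ratio. The 10 were picked by p on these same arrays, which favours genes whose ages lie apart.

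Lower at E13.5, Mrap, an accessory protein of the ACTH receptor, was at -2.36, -1.36, -0.25 and -1.03 against -0.06 to 1.86 (median 0.71) on 8 arrays, with a difference of -1.99 ± 0.50 (SE) and an unadjusted p of 0.00145. Dedd, a nuclear death effector domain protein, was at -1.96, -1.76, -1.15 and 0.17 against -0.30 to 2.35, with a difference of -1.93 ± 0.50. Mrap did not overlap between ages, and Dedd did. The others were Alb, Afp, the syntaxin Stx12 (-3.66), the kinase Stk32c (-1.71), the ubiquitin ligase Nhlrc1 (-2.58), Arhgap25 (-2.28), the zinc finger protein Mzf1 (-1.68) and Shisa3 (-1.46). Arhgap25 was -1.52 without array 1 of E13.5 and Mzf1 -1.11 without array 2. Of these 10, Mrap, Stk32c, Afp and Mzf1 did not overlap, where 0.0791% of all genes did so with a lower ratio. These 10 too were picked by p on the same arrays.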

How the data were processed

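The authors deposited 1 log2 ratio of the 2 channels per probe and array, and the log2 scale was checked on dim spots, where small whole-number ratios recur. The scanner and how the authors normalised are not stated by any source at hand, and the direction of the deposited log2 ratios is unsettled. Values over 12 from 0 were treated as missing and arrays were centred on their probe median. Probes with at least 8 values at E12.5 and 3 at E13.5 were kept. Of 20355 probes, 14030 had 1 gene symbol, 5 several and 6320 none. Of the named ones, 13994 took the current symbol through the gene identifier and 36 kept that of the annotation. Probes of a gene were averaged.

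Differences were fitted with limma 3.58.1 in R 4.3.3 (lmFit and eBayes), with terms for age and dye orientation, on 16 arrays, two-sided, with Benjamini-Hochberg adjustment over all 7587 genes. SE and p come from that fit, and SD from the arrays. The fit was tested on simulated data. Spread between control animals is not in these ratios, since each pool is 1 RNA. The number of arrays limits the precision, and signal over background is unknown.

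The members and the 38 gene lists, 36 of them with at least 5 measured genes, were chosen with earlier results of these data known, so lists have no test. Genes named are Jmjd6, the 10 with the smallest p in each direction, and in each list those with unadjusted p under 0.05 (up to 4 a direction) or, failing that, the smallest p. Cell type markers are named besides. Alternatives changed centring, scaling, filters, dim spots, sign, dye term, prior and the arrays used. Centring within brightness classes and the fit lacking arrays 9 and 10 at E12.5 were chosen after seeing the data. Numbers of arrays did not pair the ages: same-number correlations of deviations ran from -0.0286 to 0.117 over 4 pairs, with 1 over 0.1.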

Additional observations from a re-analysis of the deposited data

Results flagged for a closer look

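Of 103 groups of 4 arrays of E13.5 checked, a gene or a list each, 3 (2.91%) held an array far from the other 3, where chance gives about 1 in 20. In all of them it was array 1. Ist1 was at 3.885 on array 1 and at 0.72 to 0.86 on the others. Comp, a cartilage matrix protein, was at 1.18 on array 1 and at -0.62 to -0.53 on the others. The list of complex I had a median of 0.51 above all genes on array 1 and of 0.19 to 0.23 on the others.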

How the results depend on the processing

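The count of genes past the adjusted threshold was 0 under every alternative run, with an adjusted p by limma of at least 0.173 (Afp, genes with at least 11 and 4 values), and the count at an unadjusted p under 0.05 ran from 14 (arrays of E13.5 averaged) to 586 (arrays scaled to 1 spread). It was 325 in the fit reported, 169 without array 1 of E13.5, 130 with arrays of E12.5 averaged in assumed sets and those of E13.5 as 1 sample and 188 with the sign turned. The list medians moved by less than the spread between arrays in 31 of 33 alternatives for ribosomal proteins, 30 of 33 for oxidative phosphorylation and 31 of 33 for secreted liver proteins. The exceptions were centring on bright probes (0.37, 0.042 and -0.68), the sign turned (0.023 for ribosomal proteins and 0.067 for oxidative phosphorylation) and at least 11 and 4 values (0.65 for oxidative phosphorylation and -0.45 for liver). The spread between arrays was an SD of 0.46, 0.18 and 0.18, and 16 of the 33 alternatives left out a single array. For ribosomal proteins that limit is wide. The median of 0.57 without arrays 9, 10 and 13 of E12.5 and 1 of E13.5 still lay within it. Leaving out each array gave 0.67 to 0.90, 0.42 to 0.53 and -0.29 to -0.17. With the array number as a replicate block, which does not pair the ages, 0 genes passed, 447 of 7321 had an unadjusted p under 0.05 and the medians were 0.69, 0.40 and -0.38; 1 of 4 arrays of E13.5 correlated best with its own number.

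Of 2489 values of the 75 named genes under alternatives, 2467 kept the sign of the difference and 22 did not, none of these on leaving out a single array. Most of these genes were named for a small p on the same arrays, so a kept sign is no separate support. With the sign turned 21 genes crossed 0, and elsewhere 1. Casp1 was at -0.46 with values over 12 kept. With the sign turned on arrays with the mutant in Cy3, the differences of Chrac1 (-0.45), Adam12 (-0.78), Sec24b (-0.31), Mrps23 (-0.21), 1700012A03Rik (-2.23), Pdxp (-0.13), Stx12 (0.16), Rpl7 (-0.0063), Rpl24 (-0.081), Rps18 (1.10), Mrpl33 (-0.49), Tpt1 (-0.22), Cox6c (-0.12), Psmb5 (-0.043), Cdk1 (-0.21), Mcm4 (-0.0091), Snrnp200 (0.19), Eftud2 (0.997), Comp (0.30), Dcn (-0.37) and Lgals4 (1.15) crossed 0. Of the 36 list medians, 17 changed sign with bright-probe centring, 4 without centring, 3 with scaling and 10 with the sign turned. With bright-probe centring the median of all genes also changed sign, from 0.07 to -0.37. The cause of these changes was not tested.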
